A study of Oryza sativa with 8 samples.

Results

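Untreated roots were compared with untreated leaves of rice (Oryza sativa, cultivar Nipponbare) by RNA sequencing, using the 2 root control libraries and the 2 leaf control libraries, which are 4 of the 8 libraries of the series. Root control plants and leaf control plants were the same kind of plant: Nipponbare seedlings, 2 weeks old, raised in liquid culture in a greenhouse without NaCl and harvested beside the salt-treated seedlings. The other 4 libraries came from roots and leaves of seedlings given 150 mmol NaCl (the labels give no volume) for 24 hours, and served here to estimate the spread and to show each organ difference in other libraries. The sample titles name root and leaf, whereas the tissue field calls the root libraries shoot and the leaf libraries seedling. Groups follow the titles, and the marker genes below were set against them. According to the labels the replicates are biological, but whether each library is a pool of plants is not given. The samples are tissues of many cell types, so fewer cells of a type and less RNA per cell cannot be told apart.

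Seedlings of a cereal divide their work between organs. Leaves hold the mesophyll cells, which capture light with chlorophyll-binding antenna proteins, fix carbon with Rubisco, recover the by-product of its oxygenase reaction through photorespiration, and export sucrose through the phloem. Roots import that sucrose, cleave it for growth, and take up water and minerals through membrane transporters placed in the outer cell layers. Rice roots are known for strong silicon uptake and for secreting iron-binding phytosiderophores made from nicotianamine.

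The division was described with 21 lists of known rice genes, holding 280 locus identifiers. The files carry no gene names, so a name was kept only where a RefSeq gene table lists it on the same chromosome at a matching place. This left 182 named genes, of which 175 passed the filter (1 FPKM or more in any 2 libraries of the 8). FPKM counts fragments relative to transcript length and to all mapped fragments, so levels of different genes can be set side by side. The 3 most abundant members of each list, members that went against the direction of their list, and sets of isoforms are named by rule, and the remaining named members were picked after their values were seen. Pairs of values are given as replicate 1 and replicate 2. Differences are root minus leaf on the log2(FPKM + 1) scale with their standard error, a scale that understates the change of low genes. A gene is called higher in an organ where the adjusted p of the limma model, over all tested genes, was under 0.05.

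Of the 23776 genes tested, 9299 (39.1%) were called higher in root and 6722 (28.3%) higher in leaf, 67.4% in all, and 7110 of the called genes differed by less than 1 on the log2 scale. Counts given for each list below are to be read beside the shares of 39.1% and 28.3%. Genes that passed the filter through 1 organ alone could hardly be called higher in the other, and they enter these counts too. Between 20295 and 20366 genes reached 1 FPKM in each of the 4 control libraries. The number of fragments is not stated, and the confidence bounds of the FPKM imply between 9060000 and 9710000 per control library. Replicates ranked the tested genes alike, with a Spearman coefficient across genes of 0.969 in root and 0.980 in leaf. A single unnamed gene took 9.94% and 12.7% of the summed FPKM in the root libraries, and the same gene led leaf replicate 2 with 2.67%, whereas RBCS-C led leaf replicate 1 with 2.06%. Among the named genes, 68 of 175 (38.9%) were called higher in root, near the share over all genes, 79 (45.1%) higher in leaf and 28 in neither. Called members numbered 147 (84%, against 67.4% of all tested genes). In each, both libraries of the higher organ lay above both of the other, which follows largely from the call with 2 libraries a group. Over all tested genes, called or not, 49.4% were separated in this way with root above and 35% with leaf above. Genes with at least 10 FPKM in both root libraries and under 0.1 FPKM in both leaf libraries numbered 118, among them the nitrate transporter NRT2-1 and the Casparian strip gene CASP1. The reverse held for 49 genes, and no named gene was among them.

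**Figure D1:**
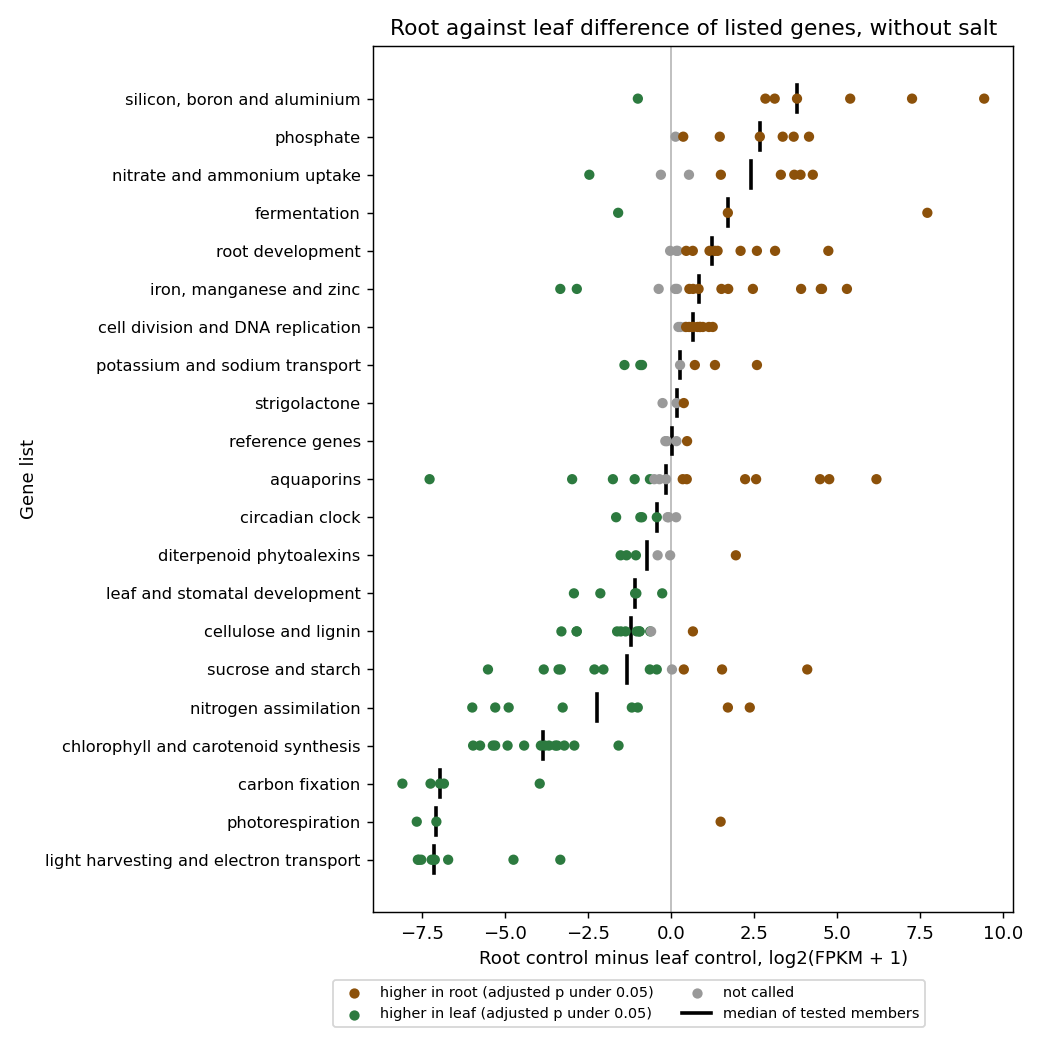
Each point is 1 tested member of a gene list, placed by its difference between root control and leaf control on the log2(FPKM + 1) scale (x axis), with lists on the y axis ordered by their median (black bar). Medians run from 3.79 in the silicon, boron and aluminium list, with higher values in root, to -7.15 in the light harvesting list, with higher values in leaf, and most lists hold members on both sides of 0.

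The marker genes of the organs lay on the side their titles name, apart from EXPA17. Those chosen for root were Lsi1, Lsi2 (given below), CslD1, EXPA17 and an identifier without a matched name, which is not described. CASP1 is given in addition. CASP1 (LOC_Os04g58760), a membrane protein that builds the Casparian strip of the root endodermis, had 27.1 and 26.5 FPKM in root against 0.0879 and 0 FPKM in leaf. Lsi1 (LOC_Os02g51110), the silicon influx transporter of rice roots, had 1556 and 1688 FPKM in root and 10.0019 and 9.17 FPKM in leaf. CslD1 (LOC_Os10g42750), needed for root hair growth, had 7.28 and 6.01 FPKM in root and 0.7203 and 0.8497 FPKM in leaf. The root hair expansin EXPA17 (LOC_Os06g01920) was at or near 0 in all 4 control libraries, with 0 and 0.254 FPKM in root and 0 and 0 FPKM in leaf, so it separated nothing here. The leaf mesophyll markers, described next, were each higher in leaf.

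Genes of the photosynthetic light reactions were called higher in leaf in 9 of 9 cases, with a median difference of -7.15, against a median of 0.18 over all tested genes. CAB2R (LOC_Os01g41710), a chlorophyll a/b-binding antenna protein, had 69.99 and 16.4 FPKM in root and 6489 and 6429.9 FPKM in leaf (-7.52 ± 0.58, adjusted p = 3.24e-05). CAB1R (LOC_Os09g17740), a related antenna protein, had 63.7 and 30.05 FPKM in root and 5329 and 4154 FPKM in leaf (-6.71 ± 0.38, adjusted p = 7.58e-06). Both leaf libraries lay far above both root libraries for these antenna genes, and the root libraries differed from each other. PETE (LOC_Os06g01210), plastocyanin, which carries electrons to photosystem I, had 51.5 and 12.3 FPKM in root and 5622 and 4635 FPKM in leaf (-7.6 ± 0.56, adjusted p = 2.44e-05). The antenna gene RCABP69 (LOC_Os07g37240), the photosystem I subunit PSAH (LOC_Os05g48630) and the ferredoxin gene (LOC_Os08g01380), which passes electrons on toward NADP+, followed the same course with differences of -7.63, -7.21 and -7.15. The Rieske iron-sulphur subunit petC (LOC_Os07g37030) was less far apart, with 44.2 and 37.1 FPKM in root and 1089.7 and 1135 FPKM in leaf (-4.75 ± 0.15, adjusted p = 7.2e-07). OEE3 (LOC_Os07g36080), an oxygen-evolving complex subunit, was the least separated of the 9. It had 51.1 and 34.1 FPKM in root, against 150.4 FPKM in leaf replicate 1 and 1229 FPKM in leaf replicate 2 (-3.34 ± 0.85, adjusted p = 0.0112), a gap of 8.12-fold in FPKM + 1 between leaf replicates, and its call was lost without root replicate 2 (adjusted p = 0.0547). In the salt-treated leaf libraries the same gene had 1144 and 1062 FPKM.

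The 5 named genes of carbon fixation were likewise called higher in leaf, with a median difference of -6.96. RBCS-C (LOC_Os12g17600), a Rubisco small subunit at chromosome 12, 10080398 to 10081661 in the coordinates of the files (build not given), was the most abundant named gene of the leaf. It had 104 and 21.7 FPKM in root and 14345 and 12412 FPKM in leaf (-8.09 ± 0.62, adjusted p = 2.97e-05). RCA (LOC_Os11g47970), Rubisco activase, had 68.6 and 9.796 FPKM in root and 4515 and 3829.6 FPKM in leaf (-7.25 ± 0.75, adjusted p = 0.000139). ALDP (LOC_Os11g07020), the plastid fructose-bisphosphate aldolase, had 39.95 and 10.8 FPKM in root and 2633 and 2404 FPKM in leaf (-6.84 ± 0.55, adjusted p = 3.94e-05). None of these genes overlapped between organs, and each was higher in root replicate 1 than in root replicate 2. FBPase (LOC_Os03g16050), the plastid fructose bisphosphatase, differed by -6.96 ± 0.35. RPE (LOC_Os03g07300), the epimerase shared by the Calvin cycle and the pentose phosphate route, was the closest to root levels, with 12.8 and 12.4 FPKM in root and 215 and 207 FPKM in leaf (-3.96 ± 0.07, adjusted p = 1.74e-07). Shares of the summed FPKM cover named genes only, 9 of 32 listed for light harvesting and 5 of 15 for carbon fixation. The shares of these named genes were 0.0484% and 0.0305% in root replicate 1 and 0.0186% and 0.00703% in root replicate 2. In leaf they were 3.80% and 3.18% in replicate 1 and 3.41% and 2.7% in replicate 2. The whole lists would take more. Small subunit and antenna genes have near-identical copies, so the split of fragments among copies is uncertain.

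**Figure D2:**
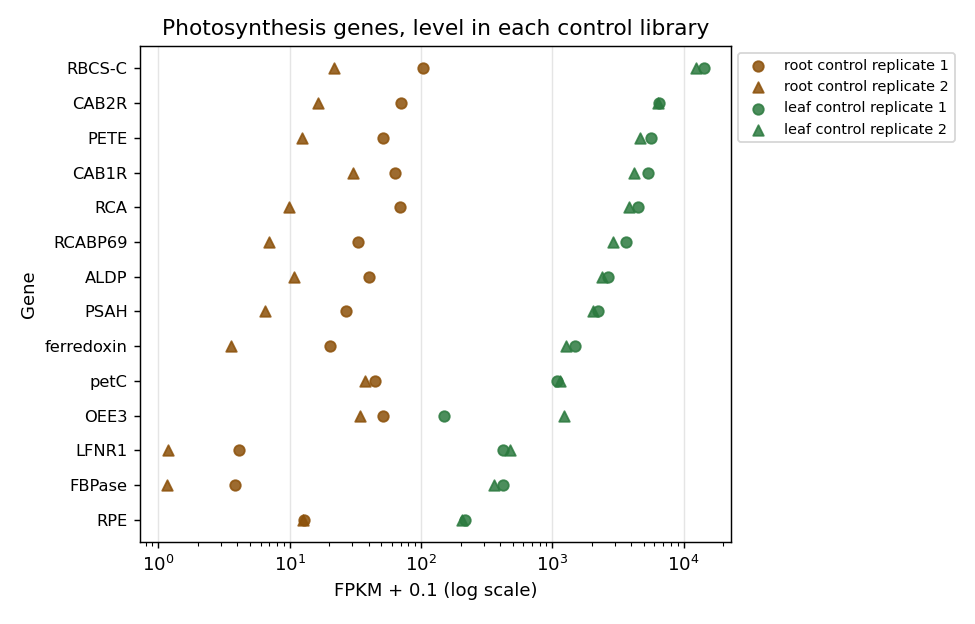
Levels of the 14 light harvesting and carbon fixation genes (y axis) in each control library, as FPKM + 0.1 on a log scale (x axis), root in brown and leaf in green, circles for replicate 1 and triangles for replicate 2. Leaf points lie right of root points for every gene, root circles lie right of root triangles, and OEE3 has its leaf points furthest apart, at 150.4 and 1229 FPKM.

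Root replicate 1 held more of these leaf transcripts than root replicate 2. In 14 of 14 photosynthesis genes the level was higher in root replicate 1, and their summed level was 1.29% of the leaf mean in root replicate 1 and 0.442% in root replicate 2. For RCA, the furthest apart, the root replicates differed by 6.45-fold in FPKM + 1. The salt-treated roots resembled root replicate 2: RBCS-C had 18.9 and 21.1 FPKM and CAB2R 13.5 and 19.3 FPKM there. Of the 175 tested members, 15 differed by more than 2-fold in FPKM + 1 between the root replicates and 14 of those were higher in replicate 1. Besides 11 of the photosynthesis genes, these were GLO1, PORA (LOC_Os04g58200) and PIP2-7, each also called higher in leaf. The exception was the nicotianamine synthase gene NAS2, higher in root replicate 2. In leaf, 3 members differed by more than 2-fold between replicates, OEE3, NAS1 and NAS2. A wider set was also described, but it cannot show whether the excess reaches other leaf genes. Its median root level is far above an excess of this size, and it was chosen by calls that used these root libraries. Over the 3971 genes called higher in leaf with a leaf mean of at least 10 FPKM, the median share of the leaf level was 25.6% in root replicate 1 and 25.8% in root replicate 2, and 2033 of them were higher in replicate 1. The source of the photosynthesis transcripts in root replicate 1 was not tested.

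Leaving root replicate 1 out kept all 14 photosynthesis genes called higher in leaf and widened each difference. For RBCS-C the difference was -9.20 without it, for RCA -8.59 and for CAB2R -8.54. Taken library by library, the leaf mean of RBCS-C was 129 times the level of root replicate 1 and 615 times that of root replicate 2. For RCA the leaf mean stood 60.8-fold above root replicate 1 and 426-fold above root replicate 2, and for CAB2R 92.3-fold and 395-fold. The direction of these differences therefore did not hang on that library, while their size did.

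Of 9 listed photorespiration genes only 3 had a matched name, and of these 2 were called higher in leaf and 1 higher in root. The count in leaf rose when identifiers without a matched name were kept, as given in a later section. GLO1 (LOC_Os03g57220), the main leaf glycolate oxidase, had 8.29 and 1.46 FPKM in root and 1041 and 897 FPKM in leaf (-7.66 ± 0.53, adjusted p = 1.89e-05). GDCSH (LOC_Os10g37180), the H protein of glycine decarboxylase, had 4.53 and 2.45 FPKM in root and 630.3 and 544 FPKM in leaf (-7.07 ± 0.21, adjusted p = 5.55e-07). Another glycolate oxidase gene, GLO4 (LOC_Os07g42440), went the other way, with 28.4 and 28.5 FPKM in root and 9.48 and 9.46 FPKM in leaf (1.49 ± 0.09, adjusted p = 9.88e-06). The replicates of GLO4 were nearly equal in each organ, and its root mean was 3.01 times its leaf mean.

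All 14 named genes of chlorophyll and carotenoid synthesis and of chloroplast formation were called higher in leaf, with a median difference of -3.86. CHLH (LOC_Os03g20700), a subunit of the magnesium chelatase that commits porphyrin to chlorophyll, had 4.71 and 2.72 FPKM in root and 274 and 223 FPKM in leaf (-5.75 ± 0.23, adjusted p = 1.51e-06). GLK1 (LOC_Os06g24070), a transcription factor that drives chloroplast genes, had 5.86 and 3.17 FPKM in root and 216 and 203 FPKM in leaf (-5.3 ± 0.27, adjusted p = 4.69e-06). Its partner GLK2 (LOC_Os01g13740) was lower, with 0.959 and 0.309 FPKM in root and 63.8 and 66.6 FPKM in leaf. GluTR (LOC_Os10g35840), glutamyl-tRNA reductase, which feeds both haem and chlorophyll synthesis, kept a higher root level, with 25.3 and 21.9 FPKM in root and 188 and 181 FPKM in leaf (-2.91 ± 0.09, adjusted p = 6.83e-07). The chelatase subunits CHLI and CHLD, the reductase DVR, both protochlorophyllide reductases, CAO (LOC_Os10g41780) and the chlorophyll synthase gene CHLG (LOC_Os05g28200) differed by -5.96 to -3.22, with PORB (LOC_Os10g35370) (3.37 and 1.47 FPKM in root, 223 and 186 FPKM in leaf) the furthest apart. In 13 of the 14 genes root replicate 1 was above root replicate 2, but the median level relative to leaf was close in both, at 5.19% and 4.8%.

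The phytoene synthases, which make the first carotenoid, differed in level. PSY1 (LOC_Os06g51290) had 7.77 and 6.08 FPKM in root and 94.3 and 80.7 FPKM in leaf (-3.49 ± 0.16, adjusted p = 2.88e-06). PSY2 (LOC_Os12g43130) had 3.88 and 2.16 FPKM in root and 45.8 and 37.2 FPKM in leaf (-3.43 ± 0.20, adjusted p = 9.09e-06). PSY3 (LOC_Os09g38320), the copy linked in maize roots to abscisic acid formation under stress, had 0.816 and 0.385 FPKM in root and 3.58 and 3.92 FPKM in leaf (-1.58 ± 0.31, adjusted p = 0.00345). Each of the 3 was higher in both leaf libraries, and PSY3 was the least abundant.

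Sucrose synthesis and export genes were higher in leaf, and some sucrose-cleaving enzymes were higher in root. In this list 8 of 12 tested members (66.7%) were called higher in leaf and 3 (25%) higher in root, against 28.3% and 39.1% of all tested genes. TPT (LOC_Os01g13770), the translocator that exports triose phosphate from chloroplasts, had 53.7 and 54.2 FPKM in root and 573 and 527 FPKM in leaf (-3.32 ± 0.09, adjusted p = 4.16e-07). CFBP1 (LOC_Os01g64660), the cytosolic fructose bisphosphatase of sucrose synthesis, had 1.78 and 0.585 FPKM in root and 104 and 86.7 FPKM in leaf (-5.51 ± 0.26, adjusted p = 3.13e-06). SUT1 (LOC_Os03g07480), a sucrose transporter that loads the phloem, had 1.94 and 2.28 FPKM in root and 34.9 and 28.4 FPKM in leaf (-3.39 ± 0.13, adjusted p = 1.38e-06). These production and export genes were higher in both leaf libraries by wide margins. AGPS2 (LOC_Os08g25734), an ADP-glucose pyrophosphorylase subunit of starch synthesis, followed them with 7.38 and 7.49 FPKM in root and 122 and 117 FPKM in leaf (-3.83 ± 0.07, adjusted p = 1.74e-07). The starch synthase gene SSI (LOC_Os06g06560) and the vacuolar sucrose transporter SUT2 (LOC_Os12g44380) were called higher in leaf by smaller differences of -0.64 and -0.43. The call of SUT2 was lost without root replicate 2 (adjusted p = 0.0666) and without leaf replicate 2 (0.0833). SUT4 (LOC_Os02g58080) was not called (0.03 ± 0.10), and SUS3 (LOC_Os07g42490) did not pass the filter.

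Sucrose synthases, which cleave sucrose to feed sink tissue, were divided by copy. Sus2 (LOC_Os06g09450) had 516 and 579 FPKM in root and 193 and 183 FPKM in leaf (1.54 ± 0.12, adjusted p = 3.24e-05). SUS1 (LOC_Os03g28330) had 312 and 349.6 FPKM in root and 269.6 and 237 FPKM in leaf (0.38 ± 0.11, adjusted p = 0.0194), a small difference whose call was lost without root replicate 2 (adjusted p = 0.0916) or without leaf replicate 2 (0.0996). SUS4 (LOC_Os03g22120) was higher in leaf, with 27.6 and 29.5 FPKM in root and 151 and 140.0 FPKM in leaf (-2.31 ± 0.15, adjusted p = 1.29e-05). The cell wall invertases, which split sucrose outside the cell, were divided in the same manner. CIN2 (LOC_Os04g33740) had 41.9 and 46.6 FPKM in root and 1.78 and 1.49 FPKM in leaf (4.1 ± 0.12, adjusted p = 5.11e-07), and CIN1 (LOC_Os02g33110) had 7.29 and 6.61 FPKM in root and 32.5 and 30.7 FPKM in leaf (-2.04 ± 0.13, adjusted p = 1.21e-05).

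Alcohol dehydrogenases, which regenerate NAD+ in fermentation, were divided as well. Adh2 (LOC_Os11g10510), at chromosome 11, 5744961 to 5748152 in the files, had 309.9 and 340.3 FPKM in root and 0.5198 and 0.569 FPKM in leaf (7.72 ± 0.10, adjusted p = 1.58e-07). Its neighbour ADH1 (LOC_Os11g10480), at chromosome 11, 5712641 to 5716288, had 6.95 and 5.75 FPKM in root and 23.3 and 19.1 FPKM in leaf (-1.59 ± 0.15, adjusted p = 0.0001). The copy that is stronger in root thus exceeded the leaf by 597-fold in mean FPKM, while its neighbour was higher in leaf. PDC2 (LOC_Os03g18220), pyruvate decarboxylase, was higher in root, with 63.3 and 64.9 FPKM in root and 22.1 and 16.1 FPKM in leaf (1.71 ± 0.19, adjusted p = 0.000212). PDC1 (LOC_Os05g39310) stayed under 1 FPKM in the control libraries and was not tested.

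Nitrate and ammonium transporters were called higher in root in 5 of 8 cases and higher in leaf in 1. The high-affinity nitrate transporters lay near the lower limit in leaf. NRT2-1 (LOC_Os02g02170) had 11.3 and 14.4 FPKM in root and 0.0407 and 0.0615 FPKM in leaf (3.71 ± 0.15, adjusted p = 1.54e-06). NRT2-2 (LOC_Os02g02190) had 17.7 and 22.8 FPKM in root and 0.127 and 0.0639 FPKM in leaf (4.27 ± 0.15, adjusted p = 9.08e-07), and since the coding sequences of these neighbours are near-identical, the split between them is uncertain. Their partner protein NAR2-1 (LOC_Os02g38230) had 16.98 and 16.8 FPKM in root and 0.104 and 0.303 FPKM in leaf (3.9 ± 0.25, adjusted p = 1.29e-05). NRT2-3 (LOC_Os01g50820) was called higher in root at a lower level (1.5 ± 0.17). AMT1-3 (LOC_Os02g40730), a high-affinity ammonium transporter of roots, had 22.2 and 20.2 FPKM in root and 0.815 and 1.76 FPKM in leaf (3.31 ± 0.21, adjusted p = 1.13e-05). AMT1-1 (LOC_Os04g43070) was not called, with 13.6 and 10.9996 FPKM in root and 15.6 and 15.1 FPKM in leaf (-0.31 ± 0.15, adjusted p = 0.114). AMT1-2 (LOC_Os02g40710), with 0.584 and 0.335 FPKM in root and listed at 0 in both leaf libraries, was not called either. AMT2-1 (LOC_Os05g39240), an ammonium transporter of another subfamily, was the member against the direction of the list, with 6.65 and 6.41 FPKM in root and 41.03 and 39.9 FPKM in leaf (-2.46 ± 0.11, adjusted p = 2.24e-06).

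Nitrogen assimilation was called higher in leaf in 6 of 8 genes and higher in root in 2. NIA1 (LOC_Os08g36480), a nitrate reductase, had 3.58 and 2.98 FPKM in root and 131 and 120.3 FPKM in leaf (-4.89 ± 0.10, adjusted p = 2.22e-07). Glutamine synthetase, which joins ammonium to glutamate, comes in a plastid form and cytosolic forms. The plastid form GLN2 (LOC_Os04g56400) had 15.7 and 11.2 FPKM in root and 966 and 852 FPKM in leaf (-5.99 ± 0.15, adjusted p = 3.53e-07). The cytosolic GLN1-2 (LOC_Os03g12290) had 131 and 149 FPKM in root and 25.7 and 26.6 FPKM in leaf (2.37 ± 0.14, adjusted p = 7.65e-06). With GLN2 leading in leaf and GLN1-2 in root, the most abundant glutamine synthetase transcript differed between the organs. The cytosolic GLN1-1 (LOC_Os02g50240) was higher in leaf, with 38.2 and 42.4 FPKM in root and 90.7 and 94.4 FPKM in leaf (-1.18 ± 0.09, adjusted p = 2.3e-05). GLN1-3 (LOC_Os03g50490) was low in both organs, with 0 and 0.101 FPKM in root and 1.17 and 1.03 FPKM in leaf (-1.0 ± 0.14, adjusted p = 0.000771).

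The 2 named glutamate synthases, which complete the cycle, were each higher in leaf, and a further glutamate synthase identifier of the list had no matched name and is not described. Fd-GOGAT (LOC_Os07g46460), the ferredoxin-dependent form, had 59.7 and 53.8 FPKM in root and 599 and 510.1 FPKM in leaf (-3.26 ± 0.11, adjusted p = 8.21e-07). GLT2 (LOC_Os05g48200), an NADH-dependent form, had 0.402 and 0.226 FPKM in root and 51.5 and 49.5 FPKM in leaf (-5.3 ± 0.19, adjusted p = 9.96e-07). GLT2 was thus near 0 in root and well above it in leaf. The ferredoxin-NADP+ oxidoreductases, which move electrons between ferredoxin and NADP+, split into a leaf form and a root form. LFNR1 (LOC_Os06g01850) had 4.003 and 1.08 FPKM in root and 422 and 474 FPKM in leaf (-7.12 ± 0.35, adjusted p = 4e-06). The root form, FNR (LOC_Os03g57120), had 27.4 and 29.01 FPKM in root and 7.46 and 8.39 FPKM in leaf (1.71 ± 0.12, adjusted p = 1.88e-05). In root replicate 1 and root replicate 2 the root form exceeded the leaf form, and in both leaf libraries the leaf form exceeded the root form.

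**Figure D3:**
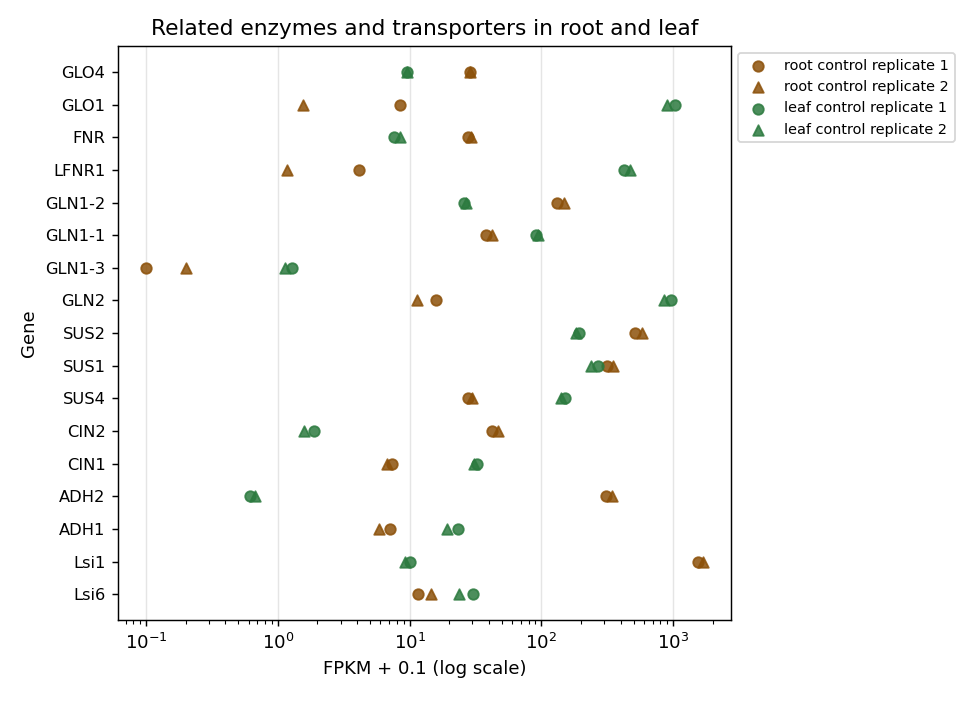
Levels of related enzymes and transporters (y axis) in each control library, as FPKM + 0.1 on a log scale (x axis), root in brown and leaf in green, circles for replicate 1 and triangles for replicate 2. Within the glycolate oxidase, ferredoxin-NADP+ oxidoreductase, invertase, alcohol dehydrogenase and silicon channel pairs, the upper gene has its root points to the right and the lower gene its leaf points.

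Phosphate genes were called higher in root in 6 of 7 tested cases, and the remaining member was not called. PT1 (LOC_Os03g05620), a phosphate transporter, had 202 and 143 FPKM in root and 66.5 and 55.5 FPKM in leaf (1.47 ± 0.19, adjusted p = 0.000415). PT8 (LOC_Os10g30790), a transporter for uptake from the medium, had 136 and 110.0 FPKM in root and 17.4 and 19.3 FPKM in leaf (2.67 ± 0.15, adjusted p = 6.5e-06). PHR2 (LOC_Os07g25710), the transcription factor that governs the phosphate starvation response, was higher in root by a small margin, with 47.01 and 46.7 FPKM in root and 37.3 and 34.9 FPKM in leaf (0.37 ± 0.08, adjusted p = 0.00423). The transporters thus stood further apart between the organs than their regulator. PHO1-2 (LOC_Os02g56510), which loads phosphate into the xylem, had 32.3 and 31.6 FPKM in root and 0.951 and 0.7499 FPKM in leaf (4.16 ± 0.20, adjusted p = 3.13e-06), the furthest apart of the list. PT2 (LOC_Os03g05640) and PT4 (LOC_Os04g10750) differed by 3.69 ± 0.18 and 3.36 ± 0.17. The phosphate sensor gene SPX1 (LOC_Os06g40120), with 6.84 and 7.96 FPKM in root and 7.59 and 5.77 FPKM in leaf, was not called (0.14 ± 0.14, adjusted p = 0.428).

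Of 7 tested potassium and sodium transporters, 3 (42.9%) were called higher in root, 3 (42.9%) higher in leaf and 1 in neither. Over all tested genes the shares were 39.1% in root, near that of the list, and 28.3% in leaf. HAK1 (LOC_Os04g32920), a high-affinity potassium transporter, had 60.3 and 59.8 FPKM in root and 9.82 and 8.53 FPKM in leaf (2.59 ± 0.09, adjusted p = 9.3e-07). AKT1 (LOC_Os01g45990), the inward potassium channel of the root surface, had 14.8 and 14.7 FPKM in root and 8.35 and 8.84 FPKM in leaf (0.72 ± 0.09, adjusted p = 0.000285). The potassium uptake genes HAK1 and AKT1, of moderate level, were higher in root, whereas the HKT sodium transporters were low in the control libraries of both organs. HKT1;5 (LOC_Os01g20160), which withdraws sodium from the xylem, had 1.86 and 1.68 FPKM in root and 0.141 and 0.0714 FPKM in leaf (1.32 ± 0.22, adjusted p = 0.001497). HKT1;1 (LOC_Os04g51820) had 0.189 and 0.238 FPKM in root and 2.41 and 2.02 FPKM in leaf (-1.4 ± 0.13, adjusted p = 8.31e-05), and HKT1;3 (LOC_Os02g07830) had 0.283 and 0.446 FPKM in root and 1.201 and 2.04 FPKM in leaf (-0.93 ± 0.20). These low genes divided by copy, HKT1;5 to root and the other two to leaf. HAK5 (LOC_Os01g70490) was called higher in leaf at levels of 0.166 and 0.05801 FPKM in root and 1.02 and 1.06 FPKM in leaf, and HKT2;1 (LOC_Os06g48810), a sodium uptake transporter, was not called (0.27 ± 0.15). HKT1;4 (LOC_Os04g51830) did not pass the filter.

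The widest root difference among the named genes was that of a silicon transporter. Lsi2 (LOC_Os03g01700), the silicon efflux transporter that passes silicon on toward the stele, lies at chromosome 3, 430478 to 432878 in the files. It had 726 and 873 FPKM in root and 0 and 0.332 FPKM in leaf (9.43 ± 0.15, adjusted p = 1.58e-07). Lsi1, at chromosome 2, 31266245 to 31269960, was the most abundant transporter of the mineral nutrition lists in root (7.26 ± 0.09, adjusted p = 1.58e-07). Lsi6 (LOC_Os06g12310), the related channel that unloads silicon from the xylem in leaves, was the exception, with 11.5 and 14.5 FPKM in root and 30.3 and 23.8 FPKM in leaf (-1.0 ± 0.16, adjusted p = 0.00115). Influx and efflux genes were thus abundant in both root libraries, and the unloading channel was higher in both leaf libraries.

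The 4 named aluminium tolerance genes were each called higher in root. STAR2 (LOC_Os05g02750), the membrane part of a transporter with STAR1, had 62.3 and 75.3 FPKM in root and 4.89 and 3.26 FPKM in leaf (3.79 ± 0.20, adjusted p = 5.54e-06). STAR1 (LOC_Os06g48060), the ATP-binding part, had 31.2 and 31.3 FPKM in root and 2.78 and 2.62 FPKM in leaf (3.12 ± 0.13, adjusted p = 2.15e-06). Nrat1 (LOC_Os02g03900), an aluminium uptake transporter, had 48.9 and 52.8 FPKM in root and 0.294 and 0.169 FPKM in leaf (5.4 ± 0.11, adjusted p = 2.02e-07). ART1 (LOC_Os12g07280), the transcription factor that controls these genes, had 61.2 and 67.5 FPKM in root and still reached 6.53 and 10.0017 FPKM in leaf (2.84 ± 0.17, adjusted p = 9.25e-06). Leaf replicates of ART1 differed from each other, but both stayed well below root.

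Iron, manganese and zinc genes were called higher in root in 10 of 15 cases, higher in leaf in 2 and in neither in 3. Nicotianamine synthases make the precursor of the phytosiderophores. NAS1 (LOC_Os03g19427) had 59.8 and 99.7 FPKM in root, against 2.63 FPKM in leaf replicate 1 and 0.0894 FPKM in leaf replicate 2 (5.3 ± 0.54, adjusted p = 0.000133). Its neighbour NAS2 (LOC_Os03g19420) had 27.5 and 63.2 FPKM in root and 2.25 and 0.0281 FPKM in leaf (4.55 ± 0.59, adjusted p = 0.000438). Both genes were higher in root replicate 2 than in root replicate 1 and higher in leaf replicate 1 than in leaf replicate 2, and because they are near copies the split between them is uncertain. NAS3 (LOC_Os07g48980) was closer between organs (0.66 ± 0.14). YSL15 (LOC_Os02g43410), which takes up the iron-phytosiderophore complex, had 28.8 and 29.97 FPKM in root and 0.241 and 0.428 FPKM in leaf (4.51 ± 0.13, adjusted p = 4.51e-07). IRO3 (LOC_Os03g26210), a transcription factor that restrains the iron response, had 12.6 and 11.1 FPKM in root and 3.36 and 3.61 FPKM in leaf (1.52 ± 0.20, adjusted p = 0.000477).

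Transporters of manganese and zinc also leaned to root. Nramp5 (LOC_Os07g15370), the manganese transporter that also admits cadmium, had 55.5 and 58.8 FPKM in root and 3.099 and 2.61 FPKM in leaf (3.92 ± 0.10, adjusted p = 3.95e-07). HMA2 (LOC_Os06g48720), a zinc pump of the vascular tissue, had 7.41 and 8.46 FPKM in root and 0.547 and 0.686 FPKM in leaf (2.47 ± 0.14, adjusted p = 6.35e-06), and Nramp1 (LOC_Os07g15460) differed by 1.72 ± 0.19. The iron transporter gene IRT2 (LOC_Os03g46454) was called higher in root at a low level (1.14 and 0.669 FPKM in root, 0.1305 and 0 FPKM in leaf), while IRT1 (LOC_Os03g46470), with 2.57 and 3.47 FPKM in root and 2.42 and 2.91 FPKM in leaf, was not called (0.13 ± 0.15, adjusted p = 0.468). YSL16 (LOC_Os04g45900) was called by a small difference of 0.55, which did not pass without leaf replicate 2 (adjusted p = 0.0561), and YSL2 (LOC_Os02g43370) and NAAT1 (LOC_Os02g20360) were not called. The vacuolar iron transporters went to leaf. VIT2 (LOC_Os09g23300) had 3.95 and 6.32 FPKM in root and 55.1 and 64.8 FPKM in leaf (-3.34 ± 0.30, adjusted p = 6.62e-05), and VIT1 (LOC_Os04g38940) had 0.905 and 1.14 FPKM in root and 14.5 and 12.4 FPKM in leaf (-2.84 ± 0.15, adjusted p = 4.91e-06). Root replicates of VIT2 differed, but both lay far below leaf.

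**Figure D4:**
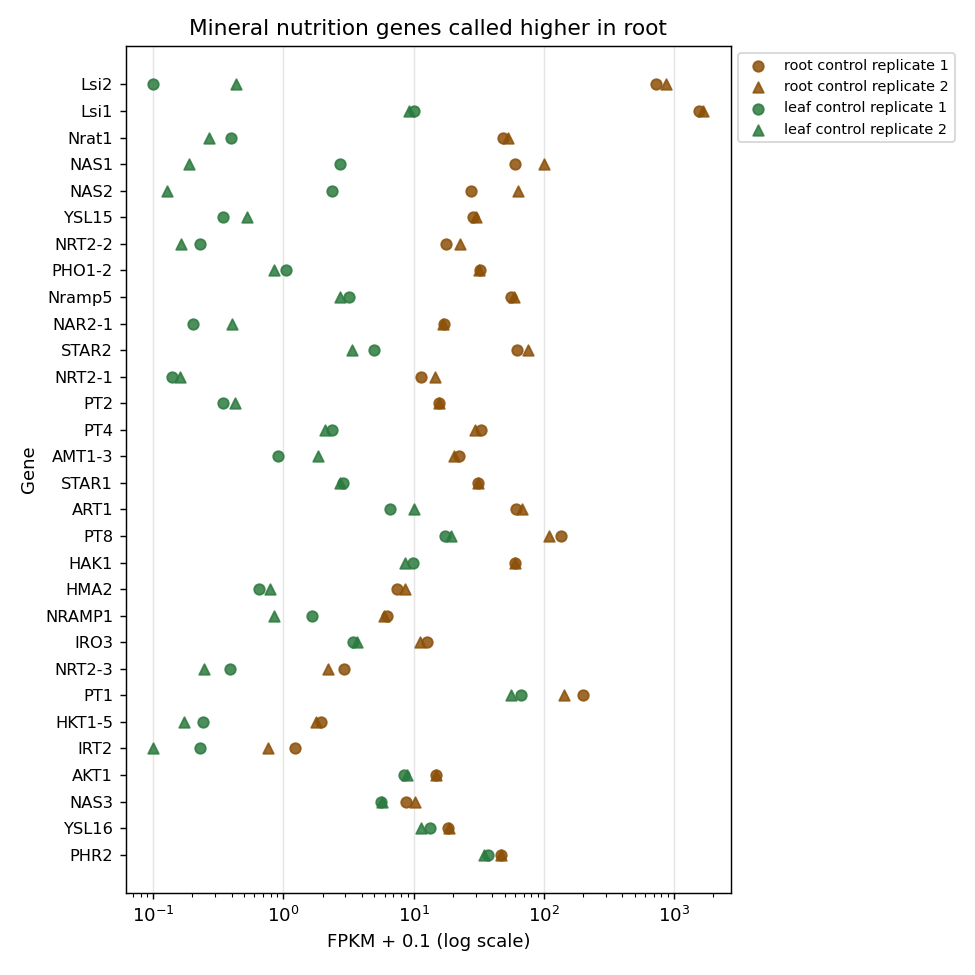
Levels of the 30 mineral nutrition genes called higher in root (y axis, ordered by difference) in each control library, as FPKM + 0.1 on a log scale (x axis), root in brown and leaf in green, circles for replicate 1 and triangles for replicate 2. Lsi1 and Lsi2 lie furthest right in root, the leaf points of NAS1 and NAS2 are far apart, and the organs come close at the bottom of the plot for YSL16 and PHR2.

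Aquaporins, the water channels of plasma membrane (PIP) and vacuole (TIP), had members on both sides, with 7 of 15 tested members (46.7%) called higher in root, 5 (33.3%) higher in leaf and 3 in neither, shares near the 39.1% and 28.3% over all tested genes. The most abundant channels occurred in both organs. TIP1-1 (LOC_Os03g05290) had 1559.8 and 1789 FPKM in root and 2235 and 2518 FPKM in leaf and was not called (-0.51 ± 0.21, adjusted p = 0.0678). TIP2-2 (LOC_Os06g22960) had 844 and 867 FPKM in root and 1812 and 1848 FPKM in leaf (-1.1 ± 0.15, adjusted p = 0.000537). PIP1-1 (LOC_Os02g44630) had 495 and 509 FPKM in root and 671 and 609 FPKM in leaf, again without a call (-0.35 ± 0.14, adjusted p = 0.0636). Some less abundant copies were nearly restricted to one organ, while others, given below, occurred in both. PIP2-3 (LOC_Os04g44060) had 98.9 and 93.9 FPKM in root and 0.337 and 0.334 FPKM in leaf (6.19 ± 0.12, adjusted p = 1.77e-07). PIP2-7 (LOC_Os09g36930) had 1.98 and 0.209 FPKM in root and 291 and 294 FPKM in leaf (-7.27 ± 0.37, adjusted p = 4.53e-06), and it was among the genes higher in root replicate 1. These copies marked opposite organs, and their replicates agree within an organ except for PIP2-7 in root.

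Of the remaining water channels, TIP2-1 (LOC_Os02g44080) had 34.1 and 54.4 FPKM in root and 0.505 and 0.744 FPKM in leaf (4.77 ± 0.24, adjusted p = 4.16e-06), and PIP2-4 (LOC_Os07g26630) had 44.6 and 46.7 FPKM in root and 1.12 and 1.04 FPKM in leaf (4.49 ± 0.17, adjusted p = 1.21e-06). PIP1-3 (LOC_Os02g57720) and PIP2-5 (LOC_Os07g26660) were also called higher in root, by 2.56 ± 0.14 and 2.23 ± 0.12. The small root differences of PIP2-2 (LOC_Os02g41860) (0.35 ± 0.12) and TIP1-2 (LOC_Os01g74450) (0.47 ± 0.13) were lost when single libraries were left out. For PIP2-2 this held without root replicate 1, root replicate 2 or leaf replicate 2 (adjusted p = 0.0686, 0.113 and 0.164), and for TIP1-2 without root replicate 1 or leaf replicate 2 (0.0890 and 0.0992). TIP4-1 (LOC_Os05g14240) had 29.5 and 29.3 FPKM in root and 224 and 254 FPKM in leaf (-2.98 ± 0.20, adjusted p = 1.65e-05), and PIP2-6 (LOC_Os04g16450) had 60.5 and 68.8 FPKM in root and 227 and 212 FPKM in leaf (-1.75 ± 0.14, adjusted p = 3.65e-05). PIP2-1 (LOC_Os07g26690) was also called higher in leaf (-0.64 ± 0.12). Summed over the 16 named channels, aquaporins took 0.539% and 0.550% of the FPKM in root and 0.916% and 0.936% in leaf, so the total was higher in both leaf libraries.

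**Figure D5:**
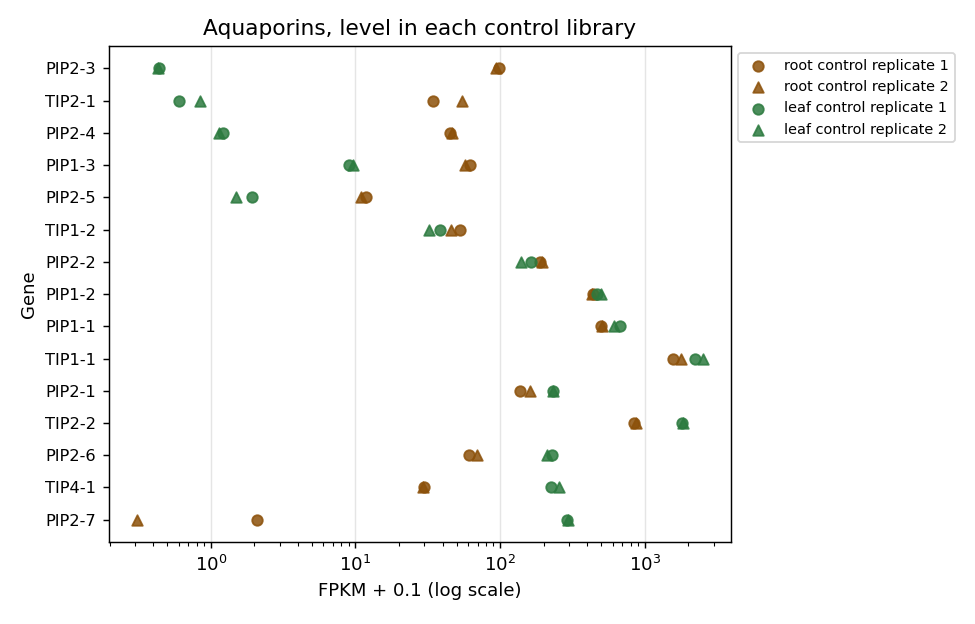
Levels of the 15 tested aquaporin genes (y axis, ordered by difference) in each control library, as FPKM + 0.1 on a log scale (x axis), root in brown and leaf in green, circles for replicate 1 and triangles for replicate 2. Root points lie far to the right for PIP2-3 at the top, leaf points for PIP2-7 at the bottom, and the organs sit close together for PIP1-2 in the middle.

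Root development genes were called higher in root in 9 of 12 cases, the others in neither organ. Of those called, CASP1, SHR1, SHR2, PIN2, PIN9, QHB and CslD1 passed the filter through root libraries alone. They could hardly have been called higher in leaf. For CASP1, given above, the difference was 4.74 ± 0.11, adjusted p = 2.8e-07. SHR1 (LOC_Os07g39820), a mobile transcription factor that patterns the ground tissue, had 14.4 and 12.3 FPKM in root and 0.811 and 0.466 FPKM in leaf (3.13 ± 0.15, adjusted p = 3.44e-06). The auxin efflux carrier PIN2 (LOC_Os06g44970) had 4.91 and 5.29 FPKM in root and 0.0309 and 0 FPKM in leaf (2.59 ± 0.12, adjusted p = 2.88e-06), and PIN9 (LOC_Os01g58860) had 1.39 and 1.604 FPKM in root and was listed at 0 in both leaf libraries. PIN1b (LOC_Os02g50960), a carrier of the same family, was not called, with 52.5 and 58.03 FPKM in root and 56.9 and 55.7 FPKM in leaf (-0.03 ± 0.13, adjusted p = 0.8603). The auxin carriers were therefore not uniformly of the root. QHB (LOC_Os01g63510), a marker of the quiescent centre of the root tip, reached 0.6795 and 0.477 FPKM in root and was listed at 0 in both leaf libraries. SHR2 (LOC_Os03g31880), WOX11 (LOC_Os07g48560), a crown root regulator, and CslD1 were called higher in root by 1.4, 1.16 and 2.09. The call of SCR2 (LOC_Os12g02870) (0.46 ± 0.15) was lost when any 1 of the 4 control libraries was left out (adjusted p between 0.0624 and 0.143), and SCR1 (LOC_Os11g03110) was not called.

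Genes of leaf form were called higher in leaf in 5 of 5 tested cases. LG1 and DL passed the filter through leaf libraries alone, so they could hardly have been called otherwise. LG1 (LOC_Os04g56170), which sets the boundary of blade and sheath, was listed at 0 in both root libraries and had 6.26 and 6.96 FPKM in leaf (-2.93 ± 0.12, adjusted p = 1.75e-06). DL (LOC_Os03g11600), a midrib gene, was listed at 0 in root and had 1.23 and 1.01 FPKM in leaf (-1.08 ± 0.18, adjusted p = 0.00143). Roc5 (LOC_Os02g45250), an epidermal homeodomain gene, had 6.59 and 5.37 FPKM in root and 28.9 and 29.96 FPKM in leaf (-2.13 ± 0.15, adjusted p = 2.27e-05). NAL1 (LOC_Os04g52479), which affects leaf width, had 7.997 and 9.02 FPKM in root and 18.1 and 19.1 FPKM in leaf (-1.05 ± 0.09, adjusted p = 5.06e-05). The photoreceptor PhyB (LOC_Os03g19590) had 16.3 and 15.9 FPKM in root and 19.3 and 19.8 FPKM in leaf (-0.27 ± 0.09, adjusted p = 0.0375), a call that was lost without any 1 of the 4 control libraries (adjusted p between 0.0851 and 0.127).

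Cell wall genes were called higher in leaf in 10 of 12 cases. Cellulose synthase subunits fall into those of the primary wall and those of the secondary wall, and the secondary wall subunits were the further apart. Secondary wall subunits were CesA4 (LOC_Os01g54620), with 7.55 and 8.32 FPKM in root and 63.9 and 61.9 FPKM in leaf, CesA7 (LOC_Os10g32980), with 7.21 and 7.56 FPKM in root and 56.1 and 62.6 FPKM in leaf, and CesA9 (LOC_Os09g25490), with 7.36 and 8.75 FPKM in root and 83.5 and 92.9 FPKM in leaf. Their differences were -2.84 ± 0.08, -2.85 ± 0.11 and -3.3 ± 0.10, against -1.62 to -0.63 in the other 6 subunits. CesA3 (LOC_Os07g24190), a primary wall subunit, had 58.5 and 61.98 FPKM in root and 119.9 and 114 FPKM in leaf (-0.95 ± 0.11, adjusted p = 0.00023). Of the lignin enzymes, PAL (LOC_Os02g41630), a phenylalanine ammonia-lyase, had 1997 and 2354 FPKM in root and 2997 and 3605 FPKM in leaf and was not called (-0.6 ± 0.23, adjusted p = 0.0556). 4CL3 (LOC_Os02g08100), a 4-coumarate CoA ligase, had 53.2 and 56.6 FPKM in root and 114 and 113 FPKM in leaf (-1.03 ± 0.12, adjusted p = 0.000209). CAD2 (LOC_Os02g09490), the cinnamyl alcohol dehydrogenase of the last step, was the exception, with 53.8 and 54.8 FPKM in root and 33.9 and 34.2 FPKM in leaf (0.66 ± 0.11, adjusted p = 0.00173). Differences of these 3 lignin enzymes lay between -1.03 and 0.66, closer to 0 than those of the secondary wall cellulose subunits.

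Cell division genes were called higher in root in 10 of 13 cases and in none higher in leaf. CDKA;1 (LOC_Os03g02680), a core cell cycle kinase, had 29.1 and 29.6 FPKM in root and 20.7 and 21.6 FPKM in leaf (0.45 ± 0.09, adjusted p = 0.00281). PCNA (LOC_Os02g56130), the sliding clamp of DNA replication, had 14.2 and 15.9 FPKM in root and 7.18 and 8.43 FPKM in leaf (0.87 ± 0.15, adjusted p = 0.00199). MCM2 (LOC_Os11g29380), a subunit of the replicative helicase, had 6.29 and 7.801 FPKM in root and 2.45 and 2.26 FPKM in leaf (1.26 ± 0.16, adjusted p = 0.000472). Differences of all 13 genes lay between 0.22 and 1.26 on the log2(FPKM + 1) scale, which understates the change of low genes. Relative to the leaf mean, their median level was 198% in root replicate 1 and 251% in root replicate 2. The mitotic genes CDKB2;1 (LOC_Os08g40170), CycB1;1 (LOC_Os01g59120), CycB2;1 (LOC_Os04g47580) and CycB2;2 (LOC_Os06g51110) were called at 1.14, 0.88, 0.8 and 0.96. The calls of MCM5 (LOC_Os02g55410) and MCM6 (LOC_Os05g14590) were lost without any 1 of the 4 control libraries (adjusted p between 0.0530 and 0.118), and that of MCM3 (LOC_Os05g39850) without root replicate 2 (0.102) or leaf replicate 1 (0.114).

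Clock genes were called higher in leaf in 4 of 7 cases, and the time of harvest is not given in the labels. GI (LOC_Os01g08700), a clock protein that links to flowering, had 417 and 447 FPKM in root and 468 and 441 FPKM in leaf (-0.07 ± 0.18, adjusted p = 0.732). PRR73 (LOC_Os03g17570), a pseudo-response regulator, had 209 and 204 FPKM in root and 231 and 214 FPKM in leaf (-0.1 ± 0.09, adjusted p = 0.353). Neither was called. PRR95 (LOC_Os09g36220) was called, with 57.2 and 55.4 FPKM in root and 172 and 188 FPKM in leaf (-1.65 ± 0.11, adjusted p = 1.28e-05). The morning gene LHY (LOC_Os08g06110) had 23.6 and 16.4 FPKM in root and 41.7 and 35.2 FPKM in leaf (-0.92 ± 0.17, adjusted p = 0.00265), and PRR37 (LOC_Os07g49460) and ELF3 (LOC_Os06g05060) were called higher in leaf by -0.87 and -0.43.

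The 3 tested strigolactone genes were close between organs. Of 6 listed identifiers 4 had a matched name, and D10 of these did not pass the filter. D14 (LOC_Os03g10620), the strigolactone receptor, had 335 and 340.5 FPKM in root and 375 and 434 FPKM in leaf (-0.26 ± 0.12, adjusted p = 0.09403). D3 (LOC_Os06g06050), the F-box protein that acts with it, had 25.5 and 26.3 FPKM in root and 20.5 and 18.8 FPKM in leaf (0.38 ± 0.11, adjusted p = 0.0165), a call lost without root replicate 2 (adjusted p = 0.0662) or leaf replicate 2 (0.0856). D17 (LOC_Os04g46470), a synthesis enzyme, had 1.07 and 1.69 FPKM in root and 1.32 and 0.9103 FPKM in leaf (0.17 ± 0.18, adjusted p = 0.4401). The receptor was thus abundant in both organs, and D17, the only synthesis gene tested, was low in both.

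Diterpenoid phytoalexin genes were low in the controls, with 3 of 6 (50%) called higher in leaf and 1 (16.7%) higher in root. The shares over all tested genes were 28.3% and 39.1%. CYP99A3 (LOC_Os04g09920), a cytochrome P450 of momilactone synthesis, had 6.78 and 7.07 FPKM in root and 1.05 and 1.05 FPKM in leaf (1.95 ± 0.15, adjusted p = 3.13e-05). CPS4 (LOC_Os04g09900), the diterpene cyclase of the same chromosome 4 cluster, was not called, with 2.8 and 2.82 FPKM in root and 2.55 and 3.25 FPKM in leaf (-0.03 ± 0.16, adjusted p = 0.892). KSL7 (LOC_Os02g36140), of the phytocassane cluster on chromosome 2, had 0.437 and 0.155 FPKM in root and 2.81 and 1.79 FPKM in leaf (-1.34 ± 0.31, adjusted p = 0.00703). These calls of opposite direction were at levels under 8 FPKM. The other chromosome 2 members, CPS2 (LOC_Os02g36210) and CYP71Z7 (LOC_Os02g36190), were called higher in leaf at -1.06 ± 0.39 and -1.52 ± 0.40. CPS2 had 0 and 0.0260 FPKM in root and 1.126 and 1.095 FPKM in leaf, so its control replicates were close. Its standard error draws on all 8 libraries, among them salt-treated roots at 2.79 and 8.604 FPKM. The call of CPS2 was lost without any 1 of the 4 control libraries, although its difference stayed between -1.08 and -1.04. That of CYP71Z7 was lost without leaf replicate 2, with a difference of -1.34.

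Genes often used as a reference were close between the organs, with 1 of 4 (25%) called higher in root, against 39.1% of all tested genes. REFA1 (LOC_Os03g08020), a translation elongation factor with near-identical copies, had 409.7 and 522 FPKM in root and 361 and 302 FPKM in leaf (0.48 ± 0.16, adjusted p = 0.0331), and its call was lost without root replicate 2 (adjusted p = 0.160) or leaf replicate 2 (0.162). RPS27AA (LOC_Os01g22490), a ubiquitin fusion gene, had 152 and 183 FPKM in root and 143 and 155 FPKM in leaf (0.16 ± 0.12, adjusted p = 0.267). GAPC (LOC_Os08g03290), cytosolic glyceraldehyde phosphate dehydrogenase, had 166 and 166 FPKM in root and 192 and 182 FPKM in leaf (-0.17 ± 0.09, adjusted p = 0.145). The actin gene ACT1 (LOC_Os03g50885) overlapped between organs, with 39.7 and 48.2 FPKM in root and 53.7 and 42.4 FPKM in leaf.

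The organ difference was set against the salt-treated libraries, which are separate libraries of the same experiment. Of the 147 called members, 134 (91.2%) had both salt-treated root libraries on the same side of both salt-treated leaf libraries as in the controls. Over all tested genes 57.6% were called in the controls and separated in the same direction with salt, which is 85.5% of the called genes. The photosynthesis, photorespiration, sucrose and starch, clock, phosphate, silicon and aluminium, iron, root development, leaf development, fermentation and cell division lists had every called member on the same side. Lsi2 had 411 and 413 FPKM in salt-treated roots and 0.179 and 0.151 FPKM in salt-treated leaves, and RBCS-C had 18.9 and 21.1 FPKM in salt-treated roots and 6406 and 6861 FPKM in salt-treated leaves. GLO4 kept its root side with 25.9 and 27.4 FPKM in salt-treated roots and 7.19 and 8.21 FPKM in salt-treated leaves. The remaining 13 members comprised 4 with overlapping organs under salt (GLN1-1, HAK5, CesA1 (LOC_Os05g08370) and D3) and 9 on the opposite side, which were all higher in leaf in the controls and higher in root with salt.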

How the data were processed

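RNA was measured in root and leaf of untreated and salt-treated rice seedlings, 2 libraries per group. The authors deposited FPKM per gene and library with confidence bounds, in the Cufflinks gene tracking format per the file headers. Cufflinks 2.2.1, TopHat2 2.0.13 and Cuffdiff are named in the submitters' processing notes. The genome build is not given in the sources used here, nor are annotation, strandedness and depth, so FPKM of overlapping genes and near copies are uncertain. From 55797 genes with 1 locus in every library, 23776 (1 FPKM or more in any 2 libraries of the 8) were fitted on log2(FPKM + 1) with limma 3.58.1 in R 4.3.3, with variances following the mean level. The model had 4 group means over all 8 libraries, because 2 libraries per group are too few to give a spread of their own, and no covariates. The contrast was root control minus leaf control, with Benjamini-Hochberg adjustment over all tested genes and a threshold of 0.05. The fit was tested on simulated data. Each p-value sets the organ difference against a spread pooled over the 4 groups, salt-treated libraries included. That spread is the one between these libraries.

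Members and lists were chosen with earlier results of these data known. The locus identifiers of known genes were entered from general knowledge of rice. Of 280 identifiers, 182 were kept, namely those whose name the RefSeq table of assembly ASM3414082v1 lists on the same chromosome, with a position shift within 150 kb of that of another named gene nearby. Genes were named by rule as the 3 members of each list with the highest mean FPKM over the control libraries, up to 3 called against the majority of the list, and sets of isoforms. Alternatives were other pseudocounts (0.1 and 5), other filters, 75th percentile scaling, quantile normalization, the control libraries alone, each control library left out, a replicate block, and identifiers without a matched name kept. One cell wall gene was left out of its list and is not reported here. No sequences are shown.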

Additional observations from a re-analysis of the deposited data

Results flagged for a closer look

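For 9 named genes called higher in leaf without salt, both leaf libraries lay above both root libraries in the controls and both root libraries lay above both leaf libraries with salt. Because the genes were picked for this opposite order in these same values, no p-value for the change with salt is used as support. Their number says nothing of members whose difference changed in size alone. A shift is the organ difference with salt minus that without, on the log2(FPKM + 1) scale, and no explanation was tested.

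Among these 9 genes, the shifts were widest for 3 genes of the phytocassane cluster on chromosome 2. KSL7 had 9.07 and 17.8 FPKM in salt-treated roots and 0.909 and 0.958 FPKM in salt-treated leaves, a shift of the difference by 4.17 on the log2 scale. CPS2 had 2.79 and 8.604 FPKM in salt-treated roots and 0.242 and 0.133 FPKM in salt-treated leaves, a shift of 3.41. CYP71Z7 had 2.46 and 6.86 FPKM in salt-treated roots and 0.903 and 0.228 FPKM in salt-treated leaves, a shift of 3.29. All 3 stayed under 3 FPKM in the control libraries.

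The ammonium transporter AMT2-1 had 23.7 and 22.2 FPKM in salt-treated roots and 14.3 and 17.4 FPKM in salt-treated leaves, a shift of 2.97. The phytoene synthase PSY3 had 29.3 and 14.96 FPKM in salt-treated roots and 9.73 and 13.1 FPKM in salt-treated leaves, a shift of 2.42. The aquaporin PIP2-1 had 682 and 627 FPKM in salt-treated roots and 472 and 442 FPKM in salt-treated leaves, a shift of 1.15.

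Among the cell wall genes, the lignin enzyme 4CL3 had 348 and 282 FPKM in salt-treated roots and 184 and 192 FPKM in salt-treated leaves, a shift of 1.77. The cellulose synthase genes CesA5 and CesA6 shifted by 1.52 and 1.45. CAD2, which was higher in root in the controls, was higher in root with salt too, with 264 and 215 FPKM in salt-treated roots and 45.3 and 41.2 FPKM in salt-treated leaves.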

How the results depend on the processing

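Over all genes the alternatives called 7547 to 9609 genes higher in root and 5301 to 7520 higher in leaf, against 9299 and 6722, and no gene called in both fits changed sides. No source states whether replicate numbers pair root and leaf samples. Replicate 1 minus replicate 2 in root and in leaf correlated at 0.0471 across genes. A low value cannot show that they were unpaired, because organs of the same plants need not deviate alike. With a replicate block 9267 genes were higher in root and 6695 in leaf. Keeping identifiers without a matched name, an alternative chosen after seeing the data, gave 31 light harvesting, 14 carbon fixation, 8 photorespiration, 14 sucrose and starch, 3 nitrate and ammonium, 10 nitrogen assimilation and 5 diterpenoid genes higher in leaf. It gave 16 iron, manganese and zinc genes, 2 diterpenoid, 2 strigolactone and 2 reference genes, and 1 gene each of carbon fixation, leaf development and the clock, higher in root. With a filter of 5 FPKM, 5 root development and 5 cell division genes were higher in root, and 1 potassium and sodium gene and 1 diterpenoid gene in leaf, because fewer low genes were tested. No diterpenoid gene was called higher in leaf with a pseudocount of 5 (0 of 6 named genes), and no reference gene higher in root without a filter or with the 4 control libraries only (0 of 4). With single libraries left out, the strigolactone count ranged from 0 to 1 in root, the reference count from 0 to 1 in root and the diterpenoid count from 1 to 2 in leaf. The cause was not tested. Uncalled differences turned sign for TIP1-1 (0.0416) and GI (0.0303) under quantile normalization. With single libraries left out they ranged from -0.0984 to 0.0431 for PIN1b, from -0.0225 to 0.353 for D17 and from -0.157 to 0.104 for CPS4. PAL was called with a filter of 5 FPKM and with the block. FPKM files carry no counts, so depth limits cannot be stated per gene.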

Other observations

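Clock genes stood at other levels in the salt-treated libraries. LHY had 614 and 581 FPKM in salt-treated roots and 23.6 and 16.4 FPKM in control roots, and 997 and 1066 FPKM in salt-treated leaves and 41.7 and 35.2 FPKM in control leaves. PRR1 had 2.39 and 2.55 FPKM in salt-treated roots and 37.9 and 40.4 FPKM in control roots, and 1.68 and 1.93 FPKM in salt-treated leaves and 32.6 and 37.8 FPKM in control leaves. GI had 69.98 and 87.7 FPKM in salt-treated roots and 417 and 447 FPKM in control roots. In both organs LHY was thus higher and PRR1 lower in each salt-treated library than in each control library. The labels give no hour of harvest.

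The momilactone genes on chromosome 4 were higher in both root libraries than in both leaf libraries with salt. CPS4 had 69.1 and 84.96 FPKM in salt-treated roots and 0.625 and 0.352 FPKM in salt-treated leaves, and CYP99A3 had 67.4 and 89.9 FPKM in salt-treated roots and 0.157 and 0.199 FPKM in salt-treated leaves. HKT1;5, low in control roots, had 27.9 and 17.2 FPKM in salt-treated roots and 0.193 and 0.259 FPKM in salt-treated leaves. IRT1, not called in the controls, had 42.8 and 42.2 FPKM in salt-treated roots and 1.53 and 1.298 FPKM in salt-treated leaves. These genes were picked after their values were seen, and the salt effect on them was not tested.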
